A study of Mus musculus with 24 samples.

Results

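The genes described here are 10 genes of leukotriene and prostaglandin synthesis: Pla2g4c and Pla2g4a, Alox5, Alox5ap and Ltc4s, Ptgs1, Ptgs2, Hpgds and Ptges, and Hpgd. They were chosen by gene symbol, 10 of the 56691 genes in the count table, and each symbol matched 1 row in all 24 libraries. The choice was made with the succinate results of these libraries known, by which Pla2g4c, Alox5, Alox5ap and Ltc4s stand out, so their response to succinate is given below as a description.

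RNA of whole distal jejunum was sequenced in bulk from 24 mice, 1 library each, in 8 groups of 3. The groups cross sex, genotype (wild type, or Ptk6-/-, a germline knockout of the intracellular tyrosine kinase gene Ptk6) and treatment. Control mice drank regular water, and treated mice drank water with 100 mM succinate for 7 days. The genetic background was C57BL/6, after more than 20 generations of backcrossing of the knockout. Age at the end was 9 to 11 weeks and was matched between mice, which belonged to different litters of 1 colony. The knockout affects every cell of the animal, and the tissue is a whole segment of gut wall, so that fewer cells of a type and less RNA per cell cannot be told apart in any result below.

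Eicosanoids are signalling lipids made from arachidonic acid. Cytosolic phospholipases A2 free arachidonate from membrane phospholipids. 5-lipoxygenase (Alox5), helped by its activating protein (Alox5ap), turns it into leukotriene A4, and leukotriene C4 synthase (Ltc4s) joins that to glutathione to make the cysteinyl leukotrienes. Cyclooxygenases (Ptgs1, constitutive, and Ptgs2, inducible) make prostaglandin H2 instead, from which Hpgds makes prostaglandin D2 and Ptges prostaglandin E2, and Hpgd inactivates prostaglandins. In the small intestine, tuft cells, rare chemosensory cells of the epithelium, are known to detect succinate and to make cysteinyl leukotrienes and prostaglandin D2 during type 2 immune responses to worms and protists.

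Sequence upstream of the genes is shown for 4 members, because the results below turn on their succinate values (Pla2g4c, Alox5 and Ltc4s) or on the values of untreated mice of both genotypes (Hpgds). RefSeq windows on GRCm38.p6 were held for 9 of the 10 members, 11 windows in all. The 250 bases that end at the transcription start are printed 5′ to 3′ on the strand of the gene. Capitals mark letters matching 1 of 4 motifs on either strand: the POU octamer ATGCAAAT, the STAT6 pattern of TTC, any 4 bases and GAA, the GC box GGGCGG and the TATA box TATAAA. The windows lie at chr7:13325417-13325666 on the plus strand for Pla2g4c, and on the minus strand at chr6:116461179-116461428 for Alox5, chr11:50238533-50238782 for Ltc4s and chr6:65144731-65144980 for Hpgds.
Pla2g4c: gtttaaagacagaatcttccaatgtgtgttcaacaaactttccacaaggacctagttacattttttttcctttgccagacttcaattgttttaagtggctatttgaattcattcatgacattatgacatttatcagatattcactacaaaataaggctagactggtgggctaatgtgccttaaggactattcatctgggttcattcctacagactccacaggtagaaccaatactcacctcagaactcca
Alox5: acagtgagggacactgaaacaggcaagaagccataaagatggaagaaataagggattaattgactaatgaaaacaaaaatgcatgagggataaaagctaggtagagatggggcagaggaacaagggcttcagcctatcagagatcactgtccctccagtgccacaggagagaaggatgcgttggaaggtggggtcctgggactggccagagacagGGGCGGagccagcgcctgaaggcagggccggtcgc
Ltc4s: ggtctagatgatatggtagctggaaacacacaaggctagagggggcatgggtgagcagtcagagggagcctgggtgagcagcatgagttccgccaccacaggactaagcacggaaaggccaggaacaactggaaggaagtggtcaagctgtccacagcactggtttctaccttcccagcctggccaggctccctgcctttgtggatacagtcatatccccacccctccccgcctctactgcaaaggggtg
Hpgds: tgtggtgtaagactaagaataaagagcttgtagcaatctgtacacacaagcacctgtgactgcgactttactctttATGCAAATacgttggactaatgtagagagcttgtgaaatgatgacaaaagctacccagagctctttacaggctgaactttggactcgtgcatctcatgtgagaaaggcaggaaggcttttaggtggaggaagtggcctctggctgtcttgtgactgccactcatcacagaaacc
The Hpgds window held the octamer 174 to 167 bases before the start, on the strand of the gene. It was the single octamer among the 11 windows of members, and 1.60% of all 32851 windows held one. Alox5 held a GC box 35 to 30 bases before its start, a motif found in 32.7% of all windows, as did Ptgs2, Ptges and Hpgd. The printed Pla2g4c window held none of the 4 motifs, nor did its second window on chr7:13329072-13329321, and Ltc4s held none. The STAT6 pattern was found in Ptges among the members and in 5.85% of all windows, and the TATA box in 1 of 2 Pla2g4a windows and in 12.4% of all windows. G and C made up 37.2% of the Pla2g4c window shown, 52.8% of that of Alox5, 57.6% of that of Ltc4s and 45.2% of that of Hpgds, against a median of 52.4% over all windows. A match of letters is a description and says nothing of binding.

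Total counts ranged from 8080321 to 52824743 per library (median 43017686.5). Ptk6, the targeted gene, had 7 to 61 counts in each Ptk6-/- library and 284 to 2405 in each wild-type library. Replicate 1 of the Ptk6-/- succinate males stood apart as the shallowest library, with 29.7% of its counts on the 18S ribosomal RNA gene Rn18s-rs5. It listed 0 counts for Pla2g4a, Alox5 and Ptgs2, so the main fitted values of single members that rest on it are also given without it. Replicate 1 of the wild-type control males had 51.2% of its counts on Rn18s-rs5. Replicate 2 of the wild-type succinate females had a summed level of 5 heart genes of 11857 CPM (counts scaled to a common library size), against 14.5 to 193 in the other 23 libraries. Markers of enterocytes marked the tissue as gut, with 4982 to 168998 counts of Vil1 in each library. CPM values below were scaled between libraries by TMM, and the deposited FPKM values (fragments scaled for gene length and library depth) are used only to compare genes with each other.

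In the untreated jejunum 9 of the 10 members had a median below that of Hpgd by a wide margin (levels per length, FPKM). Hpgd, the enzyme that inactivates prostaglandins, was the most abundant member, with a median of 53.8 FPKM over the 12 control libraries (range 19.3 to 126). Ptgs1 followed at a median of 3.90 FPKM, then Ltc4s at 1.78 and Alox5ap at 1.76. Ptges at 1.38, Pla2g4c at 1.10 and Pla2g4a at 1.01 came next. Alox5 at 0.384, Ptgs2 at 0.304 and Hpgds at 0.287 FPKM were lowest. The ranges of neighbours in this order overlapped for every pair except Hpgd and Ptgs1, whose highest control value was 5.70 FPKM. In the 12 succinate libraries the order by median was led by Pla2g4c at 129 FPKM. Hpgd followed at 38.4, Ltc4s at 7.27 and Alox5ap at 5.33 FPKM. The lead of Pla2g4c over Hpgd did not hold in every group. In treated females Pla2g4c was at 110 FPKM or more, and Hpgd at most at 54.9 FPKM. In treated Ptk6-/- males Pla2g4c was at 1.21, 0.595 and 8.96 FPKM, below Hpgd at 3.49, 40.4 and 44.2 FPKM. In treated wild-type males Pla2g4c was at 25.1, 22.8 and 149 FPKM, and Hpgd at 44.5, 45.1 and 36.4 FPKM. By mean FPKM, Pla2g4c ranked 13822 among all genes in control wild-type males and 86 in succinate-treated Ptk6-/- females.

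**Figure D1:**
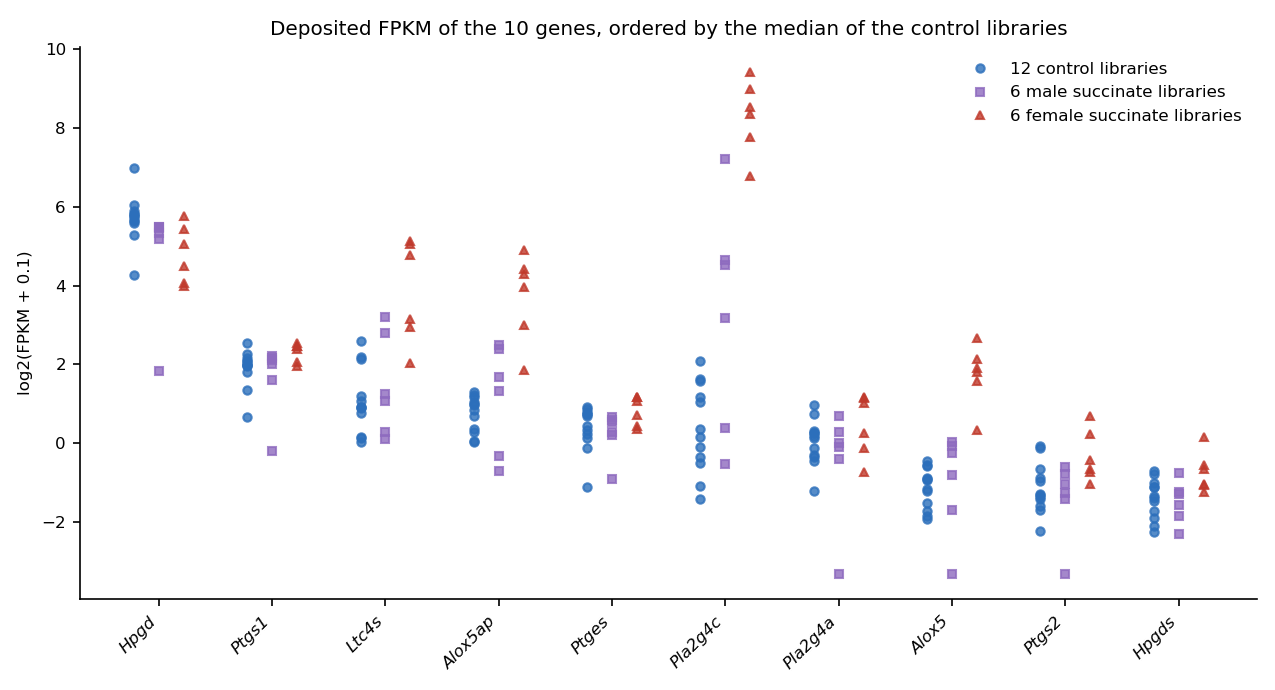
Deposited FPKM of each of the 10 genes on a log2 scale after adding 0.1, with 1 point per library for the 12 control libraries (circles), the 6 succinate-treated males (squares) and the 6 succinate-treated females (triangles), ordered by the median of the controls. Hpgd leads in the controls at a median of 53.8 FPKM, and Pla2g4c reaches the highest values after succinate.

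Of the 2 phospholipase genes, Pla2g4c was low in control mice and far higher after succinate in 3 of the 4 pairs of groups. Pla2g4c encodes the gamma form of cytosolic phospholipase A2 (ENSMUSG00000033847, chromosome 7, 13058580 to 13094597 on GRCm39). In wild-type males it was at 4.0, 1.32 and 3.23 CPM in the controls and at 107, 119 and 759.7 CPM after succinate. In wild-type females it was at 9.90, 4.43 and 5.19 CPM in the controls and at 1751, 1098 and 521 CPM after succinate. In Ptk6-/- females the values were 19.0, 14.4 and 13 CPM against 1639, 2466 and 2913 CPM. Within these 3 pairs of groups every treated library lay above every control. In Ptk6-/- males the values were 5.30, 13.3 and 2.98 CPM in the controls and 20.1, 3.08 and 43.9 CPM after succinate, and the groups overlapped.

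The fitted succinate effect on Pla2g4c was a log2 fold change of 6.88 (SE 1.03) in wild-type males, 7.45 (SE 0.69) in wild-type females, 7.22 (SE 0.48) in Ptk6-/- females and 1.68 (SE 0.91) in Ptk6-/- males, n = 3 per group. These correspond to 118-fold, 174-fold, 149-fold and 3.20-fold. Without replicate 1 of the Ptk6-/- succinate males the effect in Ptk6-/- males was 1.70 (SE 0.94). Among the treated groups the mean level was lowest in Ptk6-/- males (22.4 ± 20.5 CPM, SD), followed by wild-type males (328 ± 374), wild-type females (1124 ± 615) and Ptk6-/- females (2339 ± 646), with SD over 3 mice. The treated males of the 2 genotypes did not overlap, while each of the other neighbours in this order did.

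The alpha form, Pla2g4a (ENSMUSG00000056220, chromosome 1), the phospholipase that most cells use for eicosanoids, kept to a narrow range. Its levels were 5.71 to 14.3 CPM in the 12 controls and 4.33 to 17.8 CPM in 11 of the 12 treated libraries, with 0 counts in replicate 1 of the Ptk6-/- succinate males. Ptk6-/- females were at 12.3, 8.18 and 7.02 CPM in the controls and at 14.6, 17.8 and 15.3 CPM after succinate, without overlap, a log2 fold change of 0.78 (SE 0.29). The effect was 0.10 (SE 0.25) in wild-type males and 0.13 (SE 0.34) in wild-type females. In Ptk6-/- males it was -0.94 (SE 0.80) with all libraries and -0.50 (SE 0.29) without the library at 0 counts.

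The genes of leukotriene synthesis differed less between treated and control mice than Pla2g4c did, and most in females. Alox5 (ENSMUSG00000025701, chromosome 6, 116387038 to 116438139) was at 1.07 to 3.30 CPM in every control library. After succinate it was at 21.5, 18.9 and 6.05 CPM in wild-type females and at 14.1, 22.8 and 29.3 CPM in Ptk6-/- females. Each treated female lay above every control. Wild-type males were at 3.98, 4.23 and 5.15 CPM, above their own controls of 2.08, 2.22 and 2.26 CPM. Ptk6-/- males stayed at 0, 1.21 and 2.55 CPM, within or below their controls of 3.15, 1.81 and 1.14 CPM. The log2 fold changes were 2.79 (SE 0.60) in wild-type females, 3.34 (SE 0.38) in Ptk6-/- females, 0.99 (SE 0.28) in wild-type males and -0.47 (SE 0.79) in Ptk6-/- males, the last being -0.11 (SE 0.50) without replicate 1 of the treated group.

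Alox5ap (ENSMUSG00000060063, chromosome 5, 149201577 to 149224963) encodes the membrane protein that hands arachidonate to 5-lipoxygenase. It was at 4.12, 3.98 and 3.60 CPM in control wild-type females and at 39.9, 40.5 and 6.30 CPM after succinate. Ptk6-/- females went from 2.63, 1.71 and 5.44 CPM to 13.2, 54.9 and 24.9 CPM. Wild-type males went from 4.80, 3.38 and 4.01 CPM to 4.99, 10.2 and 10.6 CPM, and the groups did not overlap in any of these 3 pairs. Ptk6-/- males were at 2.84, 1.97 and 1.76 CPM in the controls and at 3.35, 1.37 and 4.45 CPM after succinate, with overlap. The log2 fold changes were 2.91 (SE 0.65), 3.22 (SE 0.66), 1.06 (SE 0.37) and 0.51 (SE 0.51) in the same order of groups, the last being 0.42 (SE 0.47) without replicate 1 of the treated Ptk6-/- males.

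Ltc4s (ENSMUSG00000020377, chromosome 11, 50127288 to 50129443), the enzyme that commits leukotriene A4 to the cysteinyl branch, varied widely between mice of 1 group. Treated wild-type females were at 50.9, 45.5 and 5.22 CPM, and their controls at 2.20, 6.53 and 5.99 CPM. Treated Ptk6-/- females were at 9.19, 35.9 and 10.2 CPM, and their controls at 1.16, 1.34 and 9.76 CPM. Treated wild-type males were at 2.33, 9.78 and 12.7 CPM, against 3.04, 2.24 and 2.30 CPM. In each of these 3 pairs 1 mouse of a group lay among the mice of the other, so the groups overlapped. Ptk6-/- males were at 5.31, 1.40 and 3.06 CPM after succinate and at 2.67, 2.28 and 2.77 CPM without it. The log2 fold changes were 2.81 (SE 0.82) in wild-type females, 2.13 (SE 0.95) in Ptk6-/- females, 1.71 (SE 0.59) in wild-type males and 0.31 (SE 0.52) in Ptk6-/- males, or -0.20 (SE 0.36) without replicate 1 of the treated Ptk6-/- males.

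**Figure D2:**
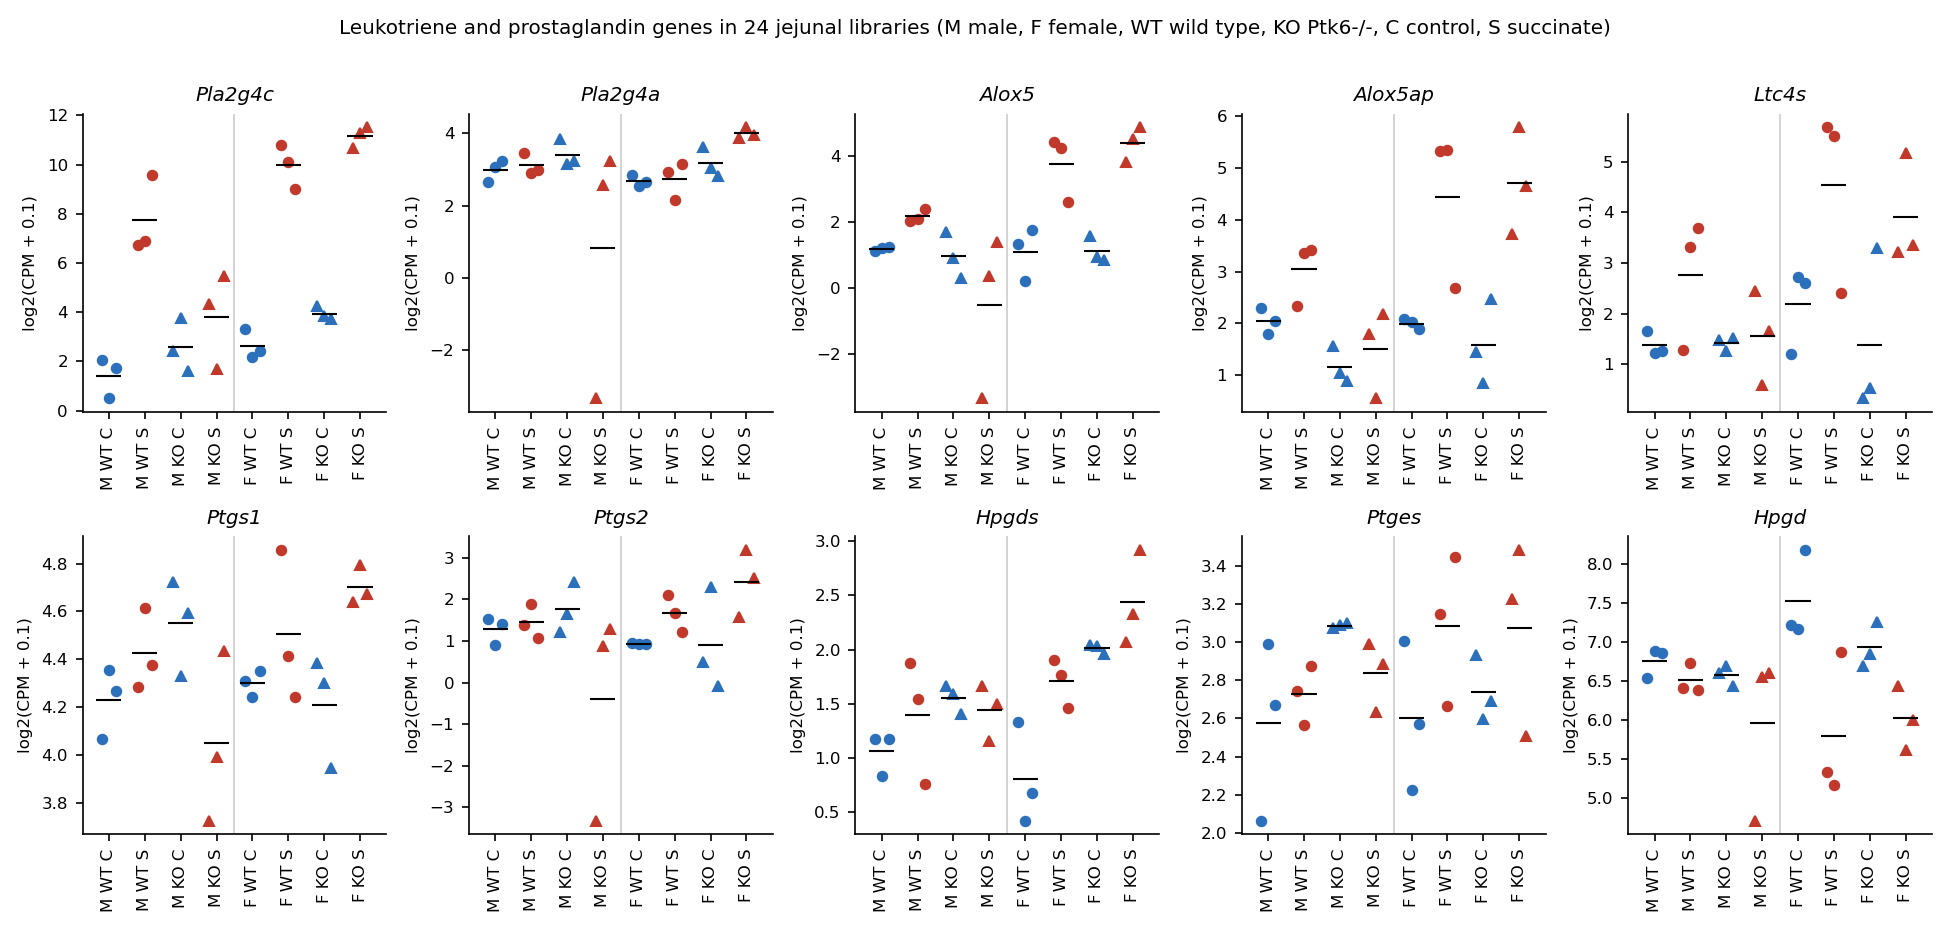
Levels of the 10 genes in each library as log2(CPM + 0.1), with 1 panel per gene, 3 points per group (circles wild type, triangles Ptk6-/-, blue control, red succinate) and a black line at the mean of the log2 values. The red points lie above the blue ones for Pla2g4c, Alox5 and Alox5ap in females and wild-type males, those of Ltc4s overlap the blue ones in every pair of groups, and the points at the bottom of the Pla2g4a, Alox5 and Ptgs2 panels are the library with 0 counts.

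The prostanoid enzymes moved little by comparison. Ptgs1 (ENSMUSG00000047250, chromosome 2) was at 15.3 to 26.3 CPM in the controls and at 13.1 to 28.9 CPM after succinate. Treated Ptk6-/- females, at 24.8, 27.6 and 25.4 CPM, lay above their controls of 20.8, 19.6 and 15.3 CPM, a log2 fold change of 0.46 (SE 0.23). In the other 3 pairs the groups overlapped, with log2 fold changes of 0.17 (SE 0.19) in wild-type males, 0.24 (SE 0.25) in wild-type females and -0.43 (SE 0.24) in Ptk6-/- males, or -0.33 (SE 0.19) without the shallowest library.

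Ptgs2 (ENSMUSG00000032487, chromosome 1) was low throughout, at 0.846 to 5.21 CPM in the controls. Treated wild-type females were at 4.22, 3.10 and 2.24 CPM, above controls at 1.84, 1.80 and 1.80 CPM, a log2 fold change of 0.83 (SE 0.37). Treated Ptk6-/- females were at 2.90, 9.0 and 5.6 CPM and overlapped their controls (1.33, SE 0.70). The change was 0.16 (SE 0.37) in wild-type males and -1.13 (SE 0.73) in Ptk6-/- males, or -0.77 (SE 0.39) without the library at 0 counts.

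Hpgds (ENSMUSG00000029919, chromosome 6) makes prostaglandin D2 and is used by tuft cells and mast cells. After succinate it was at 3.64, 3.29 and 2.65 CPM in wild-type females, above controls at 2.41, 1.24 and 1.5 CPM. In Ptk6-/- females it was at 4.09, 4.91 and 7.45 CPM, above controls at 4.01, 3.99 and 3.78 CPM. The log2 fold changes were 0.91 (SE 0.39) and 0.46 (SE 0.32). In males it was 0.37 (SE 0.38) for the wild type and -0.09 (SE 0.35) for Ptk6-/- mice, or -0.22 (SE 0.26) without the shallowest library. Ptges (ENSMUSG00000050737, chromosome 2) was at 4.08 to 8.47 CPM in the controls and 5.58 to 11.1 CPM after succinate, and its 4 log2 fold changes lay between -0.21 and 0.50. In Ptk6-/- males each treated mouse, at 6.11 to 7.83 CPM, lay below each control, at 8.31 to 8.47 CPM, and the log2 fold change there was -0.21 (SE 0.24), or -0.32 (SE 0.17) without the shallowest library, which was the highest of the 3 treated mice.

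Hpgd (ENSMUSG00000031613, chromosome 8) went the other way in females. Control wild-type females were at 148, 143 and 289 CPM, and treated ones at 40.3, 35.8 and 117 CPM. Control Ptk6-/- females were at 103, 115 and 153 CPM, and treated ones at 86.6, 49.0 and 63.8 CPM. Every treated female lay below every control of her genotype. The summed level of 5 enterocyte genes was 15820.0 to 20003 CPM in control and 7382 to 13123 CPM in treated wild-type females, and 8232 to 18419 CPM against 4548 to 8725 CPM in Ptk6-/- females, with 1 of the 5 genes lower without overlap in each genotype. Over all genes, 13% did not overlap there in the wild type and 21% in Ptk6-/- females. The part of the enterocyte genes in the Hpgd values was not tested. The log2 fold changes were -1.58 (SE 0.53) and -0.93 (SE 0.31), against -0.28 (SE 0.19) in wild-type males and -0.36 (SE 0.43) in Ptk6-/- males. Leaving out replicate 1 of the treated Ptk6-/- males, at 26.0 CPM, took the last value to 0.01 (SE 0.13).

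Across the 10 members, the libraries of treated and control mice did not overlap for 3 members in wild-type males, all higher, where 8.7% of all genes tested did not overlap. The count was 6 in wild-type females (5 higher, Hpgd lower) against 13% of all genes, and 7 in Ptk6-/- females (6 higher, Hpgd lower) against 21%. In Ptk6-/- males it was 1, Ptges, which was lower, against 24% of all genes. edgeR's quasi-likelihood test, at an adjusted p under 0.05 and a fold change of at least 2, called 2 members in Ptk6-/- females, Pla2g4c and Alox5, where it called 0.0879% of all genes. It called 0 members and 0% of all genes in wild-type males, in Ptk6-/- males and in wild-type females, with 4, 0 and 5 members at an unadjusted p under 0.05. Because the members were chosen with these effects known, nothing is read from these counts. The median log2 fold change of the 10 members was 0.27 in wild-type males, -0.29 in Ptk6-/- males, 0.87 in wild-type females and 1.05 in Ptk6-/- females, beside medians over all genes of 0.02, -0.10, 0.03 and -0.04.

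A single treated mouse decided the call in 2 groups. Without replicate 1 of the treated wild-type males, edgeR called Pla2g4c, Alox5, Alox5ap and Ltc4s in wild-type males, among 1077 of 18555 genes, against 0 genes with that mouse. Without replicate 3 of the treated wild-type females it called the same 4 genes and Hpgd in wild-type females, with log2 fold changes of 7.82, 3.20, 3.42, 3.35 and -2.29, among 597 of 18493 genes, against 0 genes with that mouse. In Ptk6-/- females, leaving out 1 library left 0 calls in the case of control replicate 1 or 2 or of treated replicate 2 or 3, and 1 call in the case of control replicate 3. Leaving out replicate 2 of the treated wild-type females, the library with heart transcripts, left 0 calls and a log2 fold change of Pla2g4c of 7.45.

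**Figure D3:**
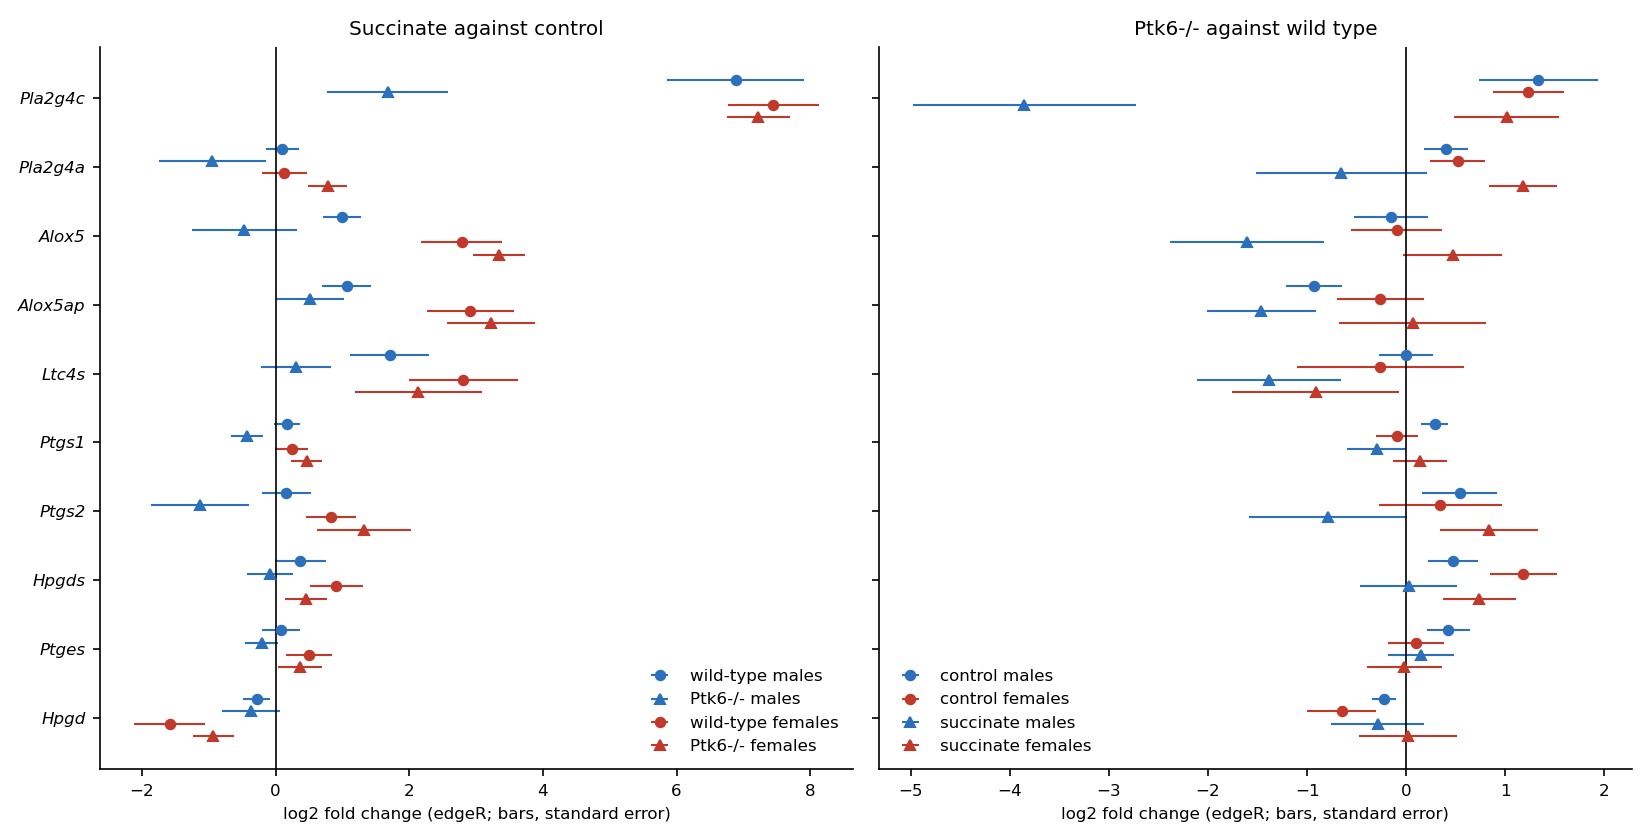
Log2 fold changes of the 10 genes from edgeR with bars of 1 standard error, for succinate against control (left) and Ptk6-/- against wild type (right) within each pair of groups of 3 mice. On the left the 3 upper Pla2g4c points lie between 6.88 and 7.45 and the Ptk6-/- male point at 1.68. On the right Pla2g4c lies at 1.34 and 1.24 in control mice and at -3.85 in treated males.

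The effect of genotype asks which of these genes depend on Ptk6. In untreated mice, Pla2g4c and Hpgds differed without overlap in females, and Alox5ap, Hpgds and Ptges in males. Pla2g4c was at 19.0, 14.4 and 13 CPM in control Ptk6-/- females and at most 9.90 CPM in control wild-type females, a log2 fold change of 1.24 (SE 0.35, adjusted p = 0.367, edgeR). In control males it was 1.34 (SE 0.60, adjusted p = 0.21, edgeR), with overlap. Hpgds was at 4.01, 3.99 and 3.78 CPM in control Ptk6-/- females against 2.41, 1.24 and 1.5 CPM in wild-type ones, a log2 fold change of 1.18 (SE 0.34, adjusted p = 0.367, edgeR). In control males it was at 3.07, 2.92 and 2.55 CPM against 2.16, 1.68 and 2.16 CPM, a log2 fold change of 0.48 (SE 0.25, adjusted p = 0.285, edgeR). So Hpgds was higher in each of the 6 control knockouts than in each control wild type of the same sex, and the difference did not pass the adjusted p in either sex. The summed B lymphoid genes, described below, also separated the control females, at 20.5 to 49.9 CPM in Ptk6-/- and 9.47 to 15.9 CPM in wild-type mice. Neutrophil genes did likewise, at 2.43 to 3.05 against 1.02 to 1.13 CPM. Higher without overlap were 2 of 5 B lymphoid genes and the 1 neutrophil gene tested, beside 18.8% of all genes without overlap. The part of both lists in these values was not tested.

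Alox5ap was lower in control Ptk6-/- males, at 2.84, 1.97 and 1.76 CPM, than in control wild-type males, at 4.80, 3.38 and 4.01 CPM (log2 fold change -0.93, SE 0.28, adjusted p = 0.0886, edgeR). The slope of log2 CPM on gene length, described below, also separated these groups, at 0.08 to 0.12 in the Ptk6-/- and -0.06 to 0.01 in the wild-type libraries, and with an offset for it the Alox5ap value was -0.77 (SE 0.28). The summed level of 5 goblet cell genes separated them too, at 10817 to 13001 CPM against 7687 to 8743 CPM, with 2 of the 5 genes higher (1 of them called by edgeR) and 2 lower without overlap, and its part in these values was not tested. Ptges was higher there, at 8.31, 8.40 and 8.47 CPM against 4.08, 7.83 and 6.27 CPM (0.43, SE 0.22, adjusted p = 0.267, edgeR). Without replicate 1 of the wild-type control males, the library with the most ribosomal RNA, the Alox5ap value was -0.75 and that of Hpgds 0.57. edgeR called 0 of the 10 members in control males, where it called 0.739% of all genes, and 0 in control females, where it called 0.0158%. At an unadjusted p under 0.05 there was 1 member in males and 2 in females. The groups did not overlap for 3 members in control males, against 32% of all genes, and for 2 in control females, against 18.8%. Leaving out replicate 3 of the control Ptk6-/- females, the one with the high Ltc4s, gave 2 calls among the members and 1808 among 18731 genes in control females, against 3 genes with it. The 2 were Pla2g4c at 1.34 (adjusted p = 0.0455, edgeR) and Ltc4s at -1.98 (adjusted p = 0.0402, edgeR).

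Among treated males, Pla2g4c, Alox5 and Alox5ap were lower in every Ptk6-/- mouse than in every wild-type mouse. The log2 fold changes were -3.85 (SE 1.13), -1.61 (SE 0.78) and -1.46 (SE 0.55), and -3.82, -1.24 and -1.56 without replicate 1 of the Ptk6-/- group. edgeR called 0 of the 10 members (adjusted p = 1.00 for each of the 3), 2 members had an unadjusted p under 0.05, and it called 0% of all genes. The 3 members without overlap compare with 9.26% of all genes. Among treated females, Pla2g4a was higher in Ptk6-/- mice, at 14.6, 17.8 and 15.3 CPM against 7.46, 4.33 and 8.83 CPM (1.18, SE 0.34, adjusted p = 0.931, edgeR). Hpgds was higher there too (0.74, SE 0.37, adjusted p = 0.931, edgeR). These were the 2 members without overlap, against 10.7% of all genes, and edgeR called 0 members and 0% of all genes, with 1 member at an unadjusted p under 0.05. The treated groups take part in both the succinate and the genotype comparisons, so these values are not independent of those given above.

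The design also permits asking whether the response to succinate depended on genotype or on sex. In males, the succinate effect on Pla2g4c was lower in Ptk6-/- than in wild-type mice by a difference of -5.20 (SE 1.40) on the log2 scale, and by -5.19 (SE 1.58) without the shallowest library (adjusted p = 0.992 and 1.0, edgeR). For Alox5 the difference was -1.43 (SE 0.86), or -1.11 (SE 0.58) without that library. In Ptk6-/- mice, the succinate effect was higher in females than in males by 5.56 (SE 1.08) for Pla2g4c, 3.77 (SE 0.86) for Alox5 and 2.73 (SE 0.84) for Alox5ap (adjusted p = 0.233, 0.283 and 0.483, edgeR). Without the shallowest library these were 5.51 (SE 1.24), 3.43 (SE 0.67) and 2.80 (SE 0.92), with adjusted p = 0.311, 0.236 and 0.548 (edgeR). In the wild type the same difference was 1.80 (SE 0.67) for Alox5 and 1.85 (SE 0.78) for Alox5ap, and -1.30 (SE 0.59) for Hpgd (adjusted p = 0.908 for each, edgeR). Tests of whether genotype altered the succinate effect, in either sex, and of whether sex did, in either genotype, each gave 0 calls among the members and 0% of all genes. At an unadjusted p under 0.05 there were 1 and 0 members for genotype in males and females, and 3 and 5 for sex in wild-type and Ptk6-/- mice. These interactions rest on the same succinate responses by which the members stand out and are descriptions.

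By their summed level, marker genes of tuft cells were higher in the treated groups in which Alox5 and Alox5ap were higher without overlap. The summed level of 14 tuft markers, which include the receptor gene Sucnr1 and the transcription factor Pou2f3, was 46.5 to 73.8 CPM in the 12 controls. After succinate it was 103 to 134 CPM in wild-type males, 44.2 to 91.9 CPM in Ptk6-/- males, 146 to 451 CPM in wild-type females and 212 to 482 CPM in Ptk6-/- females. Among treated wild-type females, replicate 3 had the lowest sum (146 CPM against 451 and 379 CPM) and also the lowest Alox5, Alox5ap, Ltc4s and Pla2g4c. The mast cell sum, described below, was lowest in that mouse too (29.4 against 153 and 114 CPM). So was the eosinophil sum (8.93 against 18.9 and 21.3 CPM), which includes Siglecf, a gene also known from tuft cells. Among treated Ptk6-/- females, the tuft sum, Alox5 and Pla2g4c were highest in replicate 3. Alox5ap and Ltc4s were highest in replicate 2, as were the mast cell sum (845 CPM) and the eosinophil sum (34.6 CPM). Of the 14 markers, 8 of 11 tested did not overlap and were higher in treated wild-type males, 1 of 12 in Ptk6-/- males, 10 of 13 in wild-type females and 12 of 13 in Ptk6-/- females. In the same order, 8.7%, 24%, 13% and 21% of all genes did not overlap, in either direction. edgeR called 1 tuft marker in Ptk6-/- females and 0 in wild-type males, Ptk6-/- males and wild-type females. No marker in these counts was lower without overlap.

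Mast cells and eosinophils also make cysteinyl leukotrienes. Of their markers edgeR called 0 in every comparison, where it called at most 0.739% of all genes, and 0% in most comparisons. The sum of 9 mast cell genes was 18.9 to 33.1 CPM in the controls, 29.4 to 153 CPM in treated wild-type females and 84.3 to 845 CPM in treated Ptk6-/- females, and up to 35.6 CPM in treated males. Of these genes, 1 of 5 tested was higher without overlap in treated wild-type females and 7 of 8 in treated Ptk6-/- females. In either direction, 13% and 21% of all genes did not overlap there. Their defining genes Fcer1a and Ms4a2 were at 0 counts in 16 and 11 of the 24 libraries. Kit and Mcpt1 had counts in every library, up to 2989 and 33018, and Mcpt2 was at 0 counts in 1 library and reached 6648. Tpsb2, Cpa3, Mcpt4 and Cma1 were at 0 counts in 3, 4, 13 and 17 libraries. The sum of 5 eosinophil genes was 1.89 to 4.92 CPM in the controls, 8.93 to 34.6 CPM in treated females, 5.85 to 7.54 CPM in treated wild-type males and 2.75 to 4.47 CPM in treated Ptk6-/- males. Of these genes 1, Siglecf, was higher without overlap in treated females of each genotype, among 2 tested in the wild type and 4 in Ptk6-/- mice. Beside it, 13% and 21% of all genes did not overlap. In treated males of each genotype, 1 of 2 tested was higher without overlap, beside 8.7% of all genes in the wild type and 24% in Ptk6-/- mice. Siglecf, which is also known from tuft cells, had the highest counts of the 5 genes, at most 1659, so the sum is not particular to eosinophils. Epx was at 0 counts in 18 libraries and at most 11 counts. Il5ra was at 0 counts in 12 libraries (at most 41), Ccr3 in 10 (at most 498) and Prg2 in 1 (at most 180). The sum of 5 B lymphoid genes was 75.7 to 90.9 CPM in treated wild-type males, where Pla2g4c, Alox5 and Alox5ap were higher than in treated Ptk6-/- males, and 10.1 to 28.4 CPM in the latter. All 5 of those genes were lower there without overlap, beside 9.26% of all genes without overlap in either direction. Controls of the wild-type males were at 13.1 to 55.7 CPM. After succinate 4 of the 5 genes were higher without overlap in these males, beside 8.7% of all genes. The sum of 7 macrophage genes was 102 to 365 CPM over the 24 libraries. That of 5 neutrophil genes was 4.68 to 8.10 CPM in treated wild-type and 2.41 to 4.47 CPM in treated Ptk6-/- males, and 1.02 to 1.13 CPM in control and 1.75 to 4.67 CPM in treated wild-type females. In treated wild-type females 3 of 5 fibroblast genes were higher without overlap, and 0 of 5 smooth muscle genes, beside 13% of all genes. The fibroblast sum there was 553 to 980.3 CPM against 400.2 to 453 CPM in controls. The fibroblast sum was 491 to 634 CPM in control and 669 to 891 CPM in treated Ptk6-/- females. There 2 of 5 genes were higher without overlap after succinate, beside 21% of all genes. In control Ptk6-/- females 2 of 5 were higher without overlap than in control wild-type females, beside 18.8% of all genes. The sum of 5 lung genes, which do not belong in jejunum, was 12.3 to 18.6 CPM in the control Ptk6-/- females, in which Hpgds was higher, against 2.48 to 3.24 CPM in control wild-type females. There 4 of the 5 lung genes were higher without overlap, beside 18.8% of all genes. edgeR called 1 of these 5, among the 3 of 19035 genes it called. The lung sum was 7.60 to 11.2 CPM in treated Ptk6-/- females, and 17.4 CPM in replicate 3 of the treated wild-type females against 3.47 and 3.93 CPM in the other 2. The part of each of these lists in the results was not tested.

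**Figure D4:**
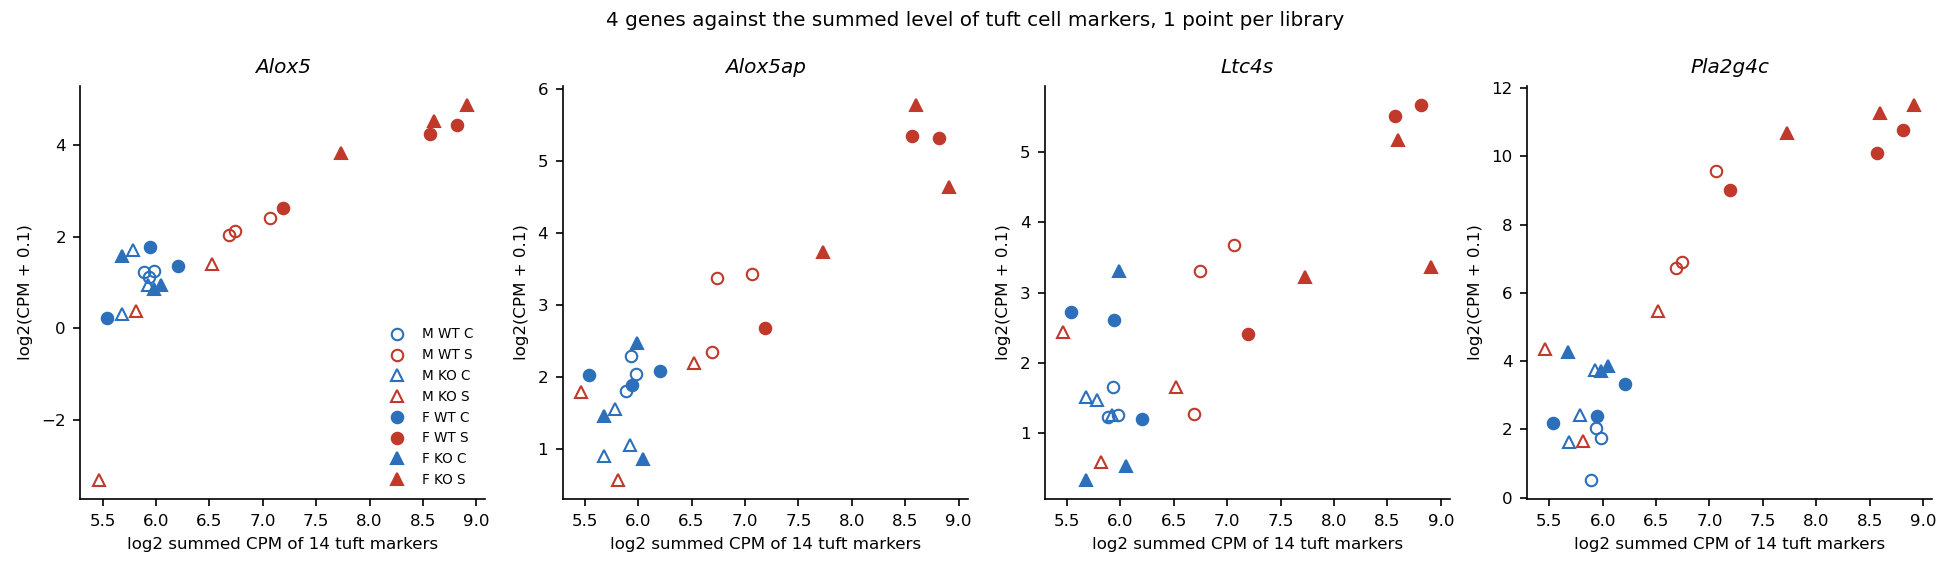
Alox5, Alox5ap, Ltc4s and Pla2g4c (vertical, log2(CPM + 0.1)) against the summed CPM of 14 tuft cell markers (horizontal, log2), with 1 point per library, open for males and filled for females, circles for wild type, triangles for Ptk6-/-, blue for control and red for succinate. Treated females, at 146 to 482 CPM of tuft markers, lie to the right of the controls, at 46.5 to 73.8 CPM.

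Ltc4s and Alox5ap also moved with a measure of each library, its slope on gene length, that Alox5 did not follow in the same way. The cause of this slope was not tested. In each library the slope of log2 CPM on gene length, relative to the other libraries, ran from -0.17 to 0.12 per doubling of length. A negative slope means that short genes were counted relatively more. Among the treated wild-type females, Ltc4s was at 50.9, 45.5 and 5.22 CPM in libraries with slopes of -0.11, 0.01 and 0.04. Among the control Ptk6-/- females, it was at 1.16, 1.34 and 9.76 CPM with slopes of 0.06, 0.11 and -0.09. As deviations from the group means over 24 libraries, Pearson's r with the slope was -0.82 for Ltc4s and -0.61 for Alox5ap, and 0.41 for Alox5, which fell to 0.17 without the shallowest library. It was 0.58 for Pla2g4a, 0.45 for Hpgd and 0.43 for Ptgs2, and 0.42, 0.28 and 0.2 without that library. The remaining members lay between -0.23 (Pla2g4c) and 0.17 (Hpgds). With an offset for the slope the succinate effect on Ltc4s was 2.82 in wild-type females, 2.12 in Ptk6-/- females, 1.64 in wild-type males and 0.04 in Ptk6-/- males, close to the values without it in the first 3. The offset takes out the average trend over all genes, so a steeper trend of Ltc4s itself stays in these values. Its part in them was not tested.

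**Figure D5:**
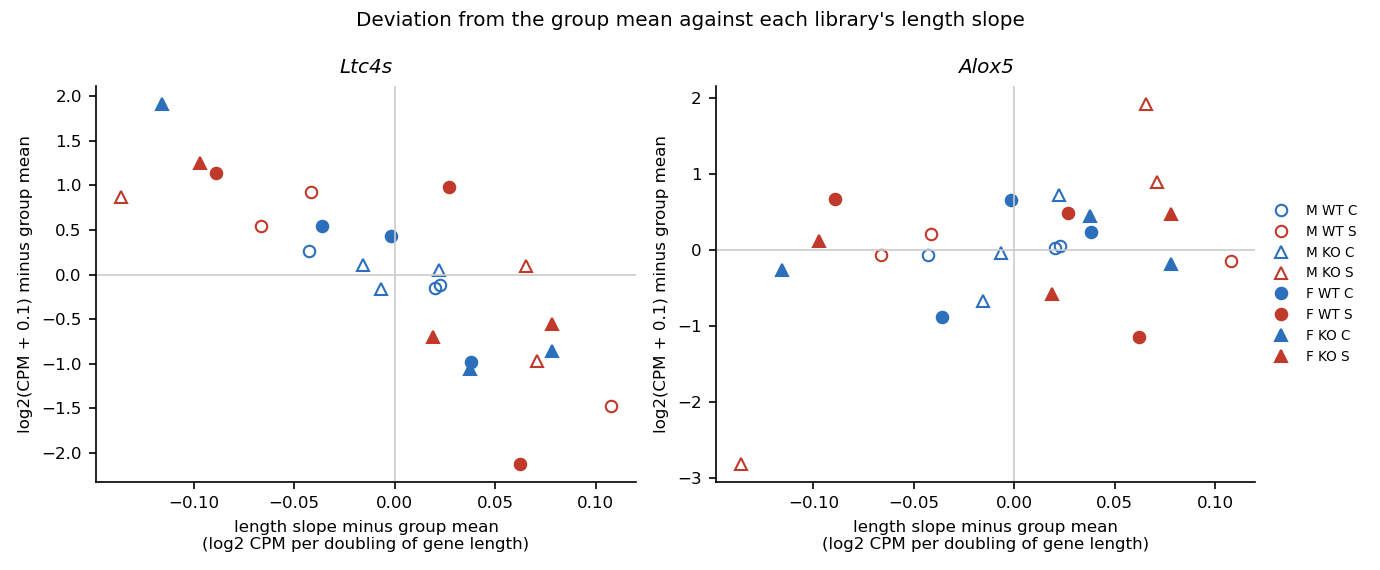
Deviation of log2(CPM + 0.1) from the group mean (vertical) against the deviation of the library's length slope from its group mean (horizontal, log2 CPM per doubling of gene length) for Ltc4s and Alox5, with 1 point per library and symbols by group. Ltc4s falls from left to right (r = -0.82 over 24 libraries), and the lowest Alox5 point is the library with 0 counts.

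The genes whose levels followed each member most closely over the 24 libraries differed between the leukotriene genes. Pearson's r of log2 CPM is given as a description over libraries that share the succinate response. Alox5 was most like Siglecf (r = 0.981) and Pou2f3 (0.969), of which Pou2f3 is on the tuft list and Siglecf is on the eosinophil list and also known from tuft cells. Within groups these values were 0.957 and 0.916. Alox5ap was most like Fam221a (0.958), Reg4 (0.954) and Ang4 (0.944), the latter pair being secretory cell genes, and Ltc4s most like Ethe1 (0.961), Reep5 (0.948) and Ckb (0.948). Alox5ap and Ltc4s resembled each other (r = 0.911, and 0.863 within groups), while Alox5 and Ltc4s had an r of 0.559, and -0.03 within groups. Pla2g4c was most like Capn13 (0.957) and the gasdermin genes Gsdmc4 (0.952) and Gsdmc2 (0.944).

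Likeness was weaker or less stable for the prostanoid genes. Hpgds was most like the tuft gene Plcb2 (r = 0.77), the lung surfactant gene Sftpa1 (0.74, and 0.04 within groups) and Kazn (0.738). Ptgs1 was most like Ncbp1 (0.832), P3h1 (0.82) and Zbtb42 (0.818). The Ptgs2 values for Tmem181c-ps, Adm and Relt fell from 0.942, 0.939 and 0.926 to 0.759, 0.747 and 0.70 without the shallowest library. Those of Pla2g4a for Cip2a, Slc25a32 and Gatm fell likewise from 0.985, 0.982 and 0.981 to 0.851, 0.766 and 0.851. Ptges had no close match (Trf, r = 0.659, Cdo1, 0.649, and Col13a1, 0.638), and Hpgd was most like Mpp1 (0.937), Maob (0.931) and Msra (0.93).

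The rest of the pathway was examined through a list of 57 genes of eicosanoid synthesis, transport, breakdown and reception, of which 54 were found in the table and 47 to 51 were tested in each comparison. edgeR called 0 of them in each of the 12 comparisons. Over all genes it called 0.0879% for succinate in Ptk6-/- females, 0.739% and 0.0158% for genotype in control males and females, and 0% elsewhere. The levels that follow are of RNA (mean FPKM over 24 libraries), and enzyme activity was not measured. The most abundant by role were the leukotriene B4 hydroxylase Cyp4f14 (308.9) and the glutathione transferase Mgst3 (177). Among phospholipase A2 genes they were Pla2g2a (32.1) and Pla2g12b (30.8) of the secreted family, and among prostanoid enzymes Prxl2b (59.6) and Cbr1 (25.2). Below these came the reductase Ptgr2 (6.08), the prostaglandin transporter Slco2a1 (4.11), the receptors Ltb4r1 (4.67), Ltb4r2 (2.74), Ptger4 (4.16) and Tbxa2r (0.925), and the lipoxygenases Alox15 (0.573) and Alox12 (0.226). Between treated and control females the libraries did not overlap for 1 higher and 8 lower of 47 genes in the wild type and for 8 higher and 6 lower of 48 in Ptk6-/- mice, beside 13% and 21% of all genes. Slco2a1, the carrier that brings prostaglandins to Hpgd, was at 111 ± 25.6 CPM (SD) in control and 31.0 ± 10.1 CPM in treated Ptk6-/- females, a log2 fold change of -1.87 (SE 0.34, adjusted p = 0.179, edgeR). In wild-type females it was -0.85, also without overlap. Cyp4f14 was lower without overlap in treated wild-type females (-1.12, adjusted p = 0.617, edgeR).

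Between genotypes, the libraries of control males did not overlap for 7 higher and 8 lower of 47 pathway genes, beside 32% of all genes. Those of control females did not overlap for 4 higher and 6 lower of 48, beside 18.8% of all genes. Ptgr1, the reductase that inactivates leukotriene B4, was singled out after its values were seen. It was lower in control Ptk6-/- males, at 46.6 ± 3.86 CPM against 68.0 ± 2.52 CPM in the wild type (log2 fold change -0.59, SE 0.11, adjusted p = 0.0375, edgeR), under the fold change the call requires. In control females it was at 44.4 ± 8.96 CPM against 117 ± 37.1 CPM (-1.40, SE 0.31, adjusted p = 0.367, edgeR). Chosen likewise after their values were seen, Prxl2b (-0.77, adjusted p = 0.0508, edgeR) and Mgst3 (-0.57, adjusted p = 0.0873, edgeR) were also lower without overlap in control Ptk6-/- males, and Ptger4, a receptor for prostaglandin E2, was higher (0.63, adjusted p = 0.0725, edgeR).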

How the data were processed

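Counts per gene and FPKM values of 24 jejunum libraries were used as deposited. The count table holds whole read counts per gene made by the authors, and the FPKM table holds FPKM computed by the authors beside an identical second copy of the counts. The reads were poly(A) selected and stranded. The submitters' processing notes name GRCm39, FastQC and StringTie, and the methods name Cutadapt and HISAT2. The program behind the counts, and whether it used strand, are not given in the sources used here. The authors' methods name DESeq2 with an adjusted p under 0.05 and a fold change of at least 2, and the same thresholds were kept here.

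Each comparison was fitted over all genes that passed edgeR's filter on low counts, in the libraries it concerns, with TMM scaling and edgeR's quasi-likelihood test (edgeR 4.0.16, limma 3.58.1, R 4.3.3), and p-values were adjusted over all genes by the Benjamini-Hochberg method. SE is the standard error of the log2 fold change, taken as its absolute value divided by the square root of the quasi-likelihood F statistic. Each library is 1 mouse, so p-values measure the spread between these mice. The test was tried on simulated data. Likeness is Pearson's r of log2 CPM (prior count 2) among genes that reached 10 counts in 3 or more libraries, without Gm and Rik symbols. The named genes are the 10 members, the 3 genes most like each (1 of which is not reported here) and, from the pathway list, the most abundant 2 of each role and those said to be chosen after their values were seen. The members and lists were chosen with earlier results of these data known. Correlations without 1 library were chosen after seeing the data. Alternatives were DESeq2 1.42.0, voom, FPKM on a log2 scale with limma, other filters, a length offset, all libraries in 1 fit, the replicate block and each library left out. No value is reported for sequence windows not held in the RefSeq table.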

Additional observations from a re-analysis of the deposited data

Results flagged for a closer look

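For 3 of the prostanoid and phospholipase genes, every treated mouse of 1 group lay above the mean of its controls and every treated mouse of another lay below the mean of its own, as mean differences of log2(CPM + 0.1). For Pla2g4a the mean difference was -2.57 in Ptk6-/- males and 0.82 in Ptk6-/- females, where edgeR's interaction gave 1.73 (SE 0.92, adjusted p = 0.708). For Ptgs2 it was -2.15 in Ptk6-/- males and 1.53 in Ptk6-/- females, with an interaction of 2.45 (SE 1.09, adjusted p = 0.69, edgeR). Both male values include the library with 0 counts, which enters them at log2 of the added 0.1. The fitted effects in Ptk6-/- males were smaller, at -0.945 (SE 0.80) for Pla2g4a and -1.13 (SE 0.73) for Ptgs2. Smaller still were those without that library, given above. For Ptgs1 it was 0.20 in wild-type males, -0.50 in Ptk6-/- males and 0.49 in Ptk6-/- females. The interaction was -0.59 (SE 0.30, adjusted p = 0.993, edgeR) between the male genotypes and 0.90 (SE 0.33, adjusted p = 0.623, edgeR) between the sexes of Ptk6-/- mice. Without the library at 0 counts the interactions between the sexes were 1.26 (SE 0.43) for Pla2g4a, 2.07 (SE 0.95) for Ptgs2 and 0.78 (SE 0.30) for Ptgs1, and that between the male genotypes -0.51 (SE 0.27) for Ptgs1 (adjusted p = 0.58, 0.684, 0.646 and 1.0, edgeR). None of the 4 interactions passed the test with or without it. No formal test for an outlying value was made, since every group holds 3 mice.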

How the results depend on the processing

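The counts here are of members called, out of 10. DESeq2 gave 1 for succinate in wild-type males, 4 in wild-type females, 1 for genotype in treated males and 2 for the sex by succinate interaction in Ptk6-/- mice, and it called 50, 274, 72 and 175 of all genes there. voom with sample quality weights gave 4 for succinate in wild-type males, 1 in wild-type females and 4 in Ptk6-/- females, 4 for genotype in control females and 4 in treated males, and it called 1556, 49, 236, 2044 and 1927 of all genes there. limma on log2(FPKM + 1) gave 1 for succinate in each of wild-type males, wild-type females and Ptk6-/- females, the last also without a filter, and 1 for the sex by succinate interaction in Ptk6-/- mice, of 1, 1, 24 (3 without a filter) and 10 genes called. With log2(FPKM + 0.1) the values were 1 in wild-type males, 1 in wild-type females and 1 for that interaction, of 126, 2 and 11 genes. Without a filter on low counts there was 1 in wild-type males, of 2 genes, and with at least 10 counts in every library 1 in wild-type females, of 1. A fit over all 24 libraries gave 1 in wild-type males and 3 in wild-type females, of 1 and 87 genes called. The replicate block, alone or with a length offset, gave 1 in wild-type females, of 4 and 3 genes, and 0 in Ptk6-/- females, of 0. The replicate numbers do not pair the mice (same-numbered deviations correlated at -0.509 to 0.359). Leaving out 1 library gave 0 to 4 in wild-type males, 0 to 5 in wild-type females, 0 to 2 in Ptk6-/- females and 0 to 2 for genotype in control females, and 0 in the other 8 comparisons. The 2 values called in Ptk6-/- females kept their sign under every setting. Uncalled values near 0 did change sign, as Hpgds in Ptk6-/- males under succinate did with a length offset (-0.09 to 0.05). The cause of these changes was not tested. The shallowest library, at 8080321 counts, limits values near 0.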
